A study of Homo sapiens with 6 samples.

Results

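The long intergenic noncoding RNAs described here were the LINC-named genes of the deposited expression table that were measured at a mean of at least 0.5 FPKM (fragment counts scaled by gene length and by library total). A gene was taken when its Ensembl ID mapped to a symbol of LINC followed by digits only, with LINC00261 left out, and when its mean over the 6 libraries reached that minimum. Of 40396 rows, 1398 carried such a symbol and 161 of these passed the minimum, while 1237 lay below it. The members were thus chosen by name and by mean FPKM over both groups, and levels are given below as a description. Since the mean includes the SAR libraries, 18 members had a control mean below the minimum and 5 a SAR mean below it.

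RNA-seq was performed on H1 cells, an established human embryonic stem cell line, at the end of 3 days of definitive endoderm (DE) differentiation. All libraries came from cultures given 50 ng/mL activin A for the whole period and 2.5 µM CHIR99021, an inhibitor of the kinase GSK3, for the first 24 h. The SAR group (3 libraries) also received 0.5 µM saracatinib, a Src and Abl kinase inhibitor, for all 3 days, and the control group (3 libraries) received an equal volume of DMSO. Both groups came from 1 cell line, and whether libraries came from separate cultures is not stated, so p-values measure the spread between these libraries, which may be technical.

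Long intergenic noncoding RNAs are transcripts from loci between protein-coding genes that have no recognised open reading frame. A LINC symbol is a number given when no function names the gene, so most of the members have no agreed role. As a class such RNAs are known for low abundance and for expression restricted to particular tissues or stages, and some act on chromatin or on transcription of a neighbouring gene. Libraries made with oligo(dT) beads are enriched for those with a poly(A) tail.

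The library totals behind the FPKM, recovered from its steps, lay between 16681280 and 24419937 for the 6 libraries. In control replicate 1 the recovered gene counts summed to 21836324 of a total of 21905956. These totals are thus close to what was counted on genes and may lie below the sequencing depth. DE markers were present in every library, and SAR raised FOXA2, SOX17 and HHEX and lowered EOMES, CER1 and GATA4 past the thresholds used here, so that 3 of 10 listed DE markers were called higher and 3 lower. With the libraries rescaled by median ratios, SOX17 (0.93) and HHEX (0.90) fell under the log2 fold threshold of 1. FOXA2, EOMES, CER1 and GATA4 stayed beyond the fold threshold in that setting. Of 7 listed motile cilia and node genes, 6 were tested and 6 were called higher, with a summed level of 2.08 to 2.76 FPKM in control and 25.7 to 30.7 FPKM with SAR. The summed level of 8 pluripotency markers was 941 to 1055 FPKM in control and 1147 to 1161 FPKM with SAR, although none was called higher and 1, NANOG, was called lower (log2 fold change -1.30). Among mesoderm markers TBXT was called higher (1.69) and MIXL1 lower (-1.35). Of 8 trophoblast and amnion markers 2 were tested, and they went in opposite directions. GATA3 was called higher (1.08), and GABRP was lower without passing the fold threshold (-0.96). After rescaling of the libraries by median ratios their log2 fold changes were 0.96 and -1.07. The part of these shifts in the differences of the LINC RNAs was not tested, and in bulk RNA fewer cells of a type and less RNA per cell cannot be told apart.

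The sequences of 4 promoters and 4 transcripts are shown first, the promoters as examples of RNAs with and without a coding gene starting nearby and the transcripts as examples of calls that held under every alternative. Each promoter window covers the RefSeq start site and the bases upstream of it on GRCh38.p14, 5′ to 3′ on the gene's strand, and the capitals mark the motifs searched, on either strand, that were found in it. LINC01124 and LINC01896 start close to a coding gene on the other strand that was called higher with them, LINC02356 starts close to one that was not called, and LINC01108 was called lower.
LINC01124, chr2:170714518-170714817, minus strand: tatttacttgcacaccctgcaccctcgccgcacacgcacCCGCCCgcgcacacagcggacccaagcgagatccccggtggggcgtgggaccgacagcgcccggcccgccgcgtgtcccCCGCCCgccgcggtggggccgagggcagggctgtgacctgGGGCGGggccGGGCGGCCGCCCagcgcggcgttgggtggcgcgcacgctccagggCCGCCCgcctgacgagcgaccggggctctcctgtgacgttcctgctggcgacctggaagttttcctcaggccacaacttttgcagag
LINC01896, chr18:78979642-78979941, minus strand: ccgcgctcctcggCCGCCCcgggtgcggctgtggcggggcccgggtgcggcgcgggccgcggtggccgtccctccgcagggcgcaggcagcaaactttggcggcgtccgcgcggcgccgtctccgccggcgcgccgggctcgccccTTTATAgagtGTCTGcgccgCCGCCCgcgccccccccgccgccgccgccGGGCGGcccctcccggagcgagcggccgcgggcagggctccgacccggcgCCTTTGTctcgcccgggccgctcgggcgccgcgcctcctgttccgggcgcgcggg
LINC02356, chr12:111369011-111369310, plus strand: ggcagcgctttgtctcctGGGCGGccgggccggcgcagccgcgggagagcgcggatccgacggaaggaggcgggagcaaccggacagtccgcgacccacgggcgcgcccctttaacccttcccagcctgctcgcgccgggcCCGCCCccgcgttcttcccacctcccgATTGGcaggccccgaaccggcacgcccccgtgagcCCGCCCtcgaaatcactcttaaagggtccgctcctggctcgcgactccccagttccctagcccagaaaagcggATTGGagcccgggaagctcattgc
LINC01108, chr6:14285405-14285704, minus strand: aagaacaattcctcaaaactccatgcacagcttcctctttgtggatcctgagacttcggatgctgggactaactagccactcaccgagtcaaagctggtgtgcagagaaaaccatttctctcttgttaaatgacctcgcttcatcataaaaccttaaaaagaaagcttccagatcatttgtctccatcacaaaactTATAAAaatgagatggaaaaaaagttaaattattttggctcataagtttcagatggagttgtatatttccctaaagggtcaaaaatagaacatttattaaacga

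The capitals in LINC01124 are GGGCGG boxes. Those in LINC01896 are the same box, the word TATAAA, a SOX-type word written ACAAAGG and a SMAD-type word written CAGAC. The words other than the box lie on the other strand in LINC01896, and its TATAAA is given as a word match only. In LINC02356 they are the GC box again and the word CCAAT on the other strand, and in LINC01108 a single TATAAA on the gene's strand. The start site of LINC01896 in RefSeq lay 617 bases from that of GENCODE 29, so its window holds the RefSeq start and not the GENCODE one.

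For 4 further RNAs that were called under every alternative setting, no promoter entry was matched, and the first 120 bases of their longest GENCODE 29 transcript are given, without marked motifs. LINC01850 and LINC02387 were called higher, and LINC00467 and LINC02575 lower.
LINC01850: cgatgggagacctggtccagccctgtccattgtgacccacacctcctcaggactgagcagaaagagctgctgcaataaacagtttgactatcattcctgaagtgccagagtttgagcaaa
LINC02387: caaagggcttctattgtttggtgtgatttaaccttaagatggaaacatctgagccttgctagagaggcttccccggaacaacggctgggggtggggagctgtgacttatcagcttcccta
LINC00467: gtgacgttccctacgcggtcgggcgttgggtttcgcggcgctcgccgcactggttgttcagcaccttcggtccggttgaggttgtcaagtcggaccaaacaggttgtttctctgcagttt
LINC02575: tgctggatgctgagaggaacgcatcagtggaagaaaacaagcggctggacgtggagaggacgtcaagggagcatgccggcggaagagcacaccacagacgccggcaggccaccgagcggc

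The 161 LINC RNAs ranged in mean level from 0.509 to 149 FPKM with a median of 1.27 FPKM. Only 13 reached 10 FPKM and 2 reached 100 FPKM, whereas 101 reached 1 FPKM. In reads, the 6 libraries together held between 15 and 54393 per LINC RNA with a median of 319, and 129 of the 161 had at least 10 reads in each library. LINC02004 and LINC01866, the 2 members listed at 0 in a library, were both at 0 in SAR replicate 3. Just below the minimum were LINC01389 at 0.485, LINC02749 at 0.487 and LINC02043 at 0.492 FPKM. Just above it were LINC02512 at 0.509, LINC01717 at 0.509 and LINC02943 at 0.511 FPKM.

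GENCODE 29 held 160 of the 161, of which 133 are of its type lincRNA and 2, LINC03040 (there C6orf223) and LINC02693, are typed as protein-coding. They lie on 23 chromosomes, most often on chromosome 2, with 19. Exons of another gene covered over 10% of the exonic bases of 7 members on the same strand and of 18 on the opposite strand. The strand setting of the counting is not stated, so reads of such pairs cannot be told apart.

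The question for these RNAs is the study's own, what 0.5 µM SAR changes by day 3 of DE differentiation. In a limma fit over all 16371 rows with a mean of at least 0.5 FPKM, a row counted as called when its Benjamini-Hochberg adjusted p was under 0.05 and its log2 fold change lay beyond 1 in either direction. Among the 161 LINC RNAs 14 were called higher with SAR (8.70%) and 6 lower (3.73%). Of the 14, 5 (LINC01850, LINC01208, LINC01918, LINC02356 and LINC03040) had a control mean under 0.5 FPKM and passed the minimum only through their SAR libraries, so the share is a description and not support for a direction. Over all tested rows the shares were 3.41% higher and 1.58% lower. Among 12578 protein-coding genes they were 2.93% and 0.898%. Among 1822 rows of GENCODE long noncoding types they were 6.59% and 3.46%, closer to the values of the LINC RNAs.

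Without a minimum fold the shares of the LINC RNAs were near those of all tested rows. With adjusted p under 0.05 alone, 36 were higher (22.4%) and 16 lower (9.94%), against 23.7% and 9.55% of all tested rows. In 58 LINC RNAs (36.0%) every SAR library lay above every control library, and in 27 (16.8%) every SAR library lay below, against 35.5% and 15.2% of all tested rows. The median log2 fold change of the LINC RNAs was 0.21 and that of all tested rows 0.12. After rescaling of the libraries by median ratios these medians were 0.09 and 0.00, and the fold changes below can be read relative to the median of 0.12.

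By level, the 24 LINC RNAs at or above 5 FPKM had a median below 0 and the 2 lower bands one above 0. Of the 24, 3 were called higher and 4 lower, beside 1.23% and 1.26% of the 7072 tested rows at that level, and their median log2 fold change was -0.20 against 0.07. Of the 77 at 1 to 5 FPKM, 7 were called higher and 1 lower, with a median of 0.27, beside 4.32% and 1.68% and a median of 0.17 for all tested rows in that band. Of the 60 below 1 FPKM, 4 were called higher (6.67%) and 1 lower (1.67%), with a median of 0.17, at the background of 6.77% and 2.15% and a median of 0.23. These are descriptions of the bands, and no test was made between them. Since the bands use the mean over both groups, a called RNA can enter a band through its higher group alone. LINC01896 and LINC02387 had control means of 2.58 and 4.30 FPKM, and every SAR library of LINC00467 lay below 5 FPKM.

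**Figure D1:**
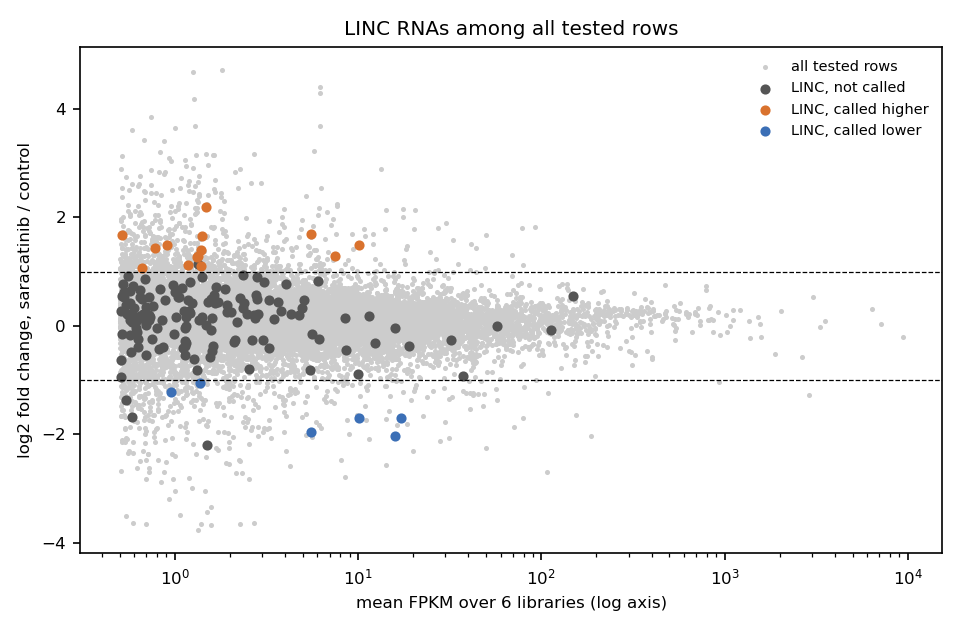
Mean FPKM over 6 libraries (x axis, log scale) against the log2 fold change of SAR over control (y axis) for all 16371 tested rows in grey and the 161 LINC RNAs in dark grey (not called), orange (called higher) and blue (called lower); dashed lines mark a log2 fold change of 1 in each direction. The 14 LINC RNAs called higher lie mostly at low means, and 4 of the 6 called lower lie above 5 FPKM.

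Summed over the 161 LINC RNAs the level was 746 to 771 FPKM in control and 753 to 788 FPKM with SAR, so the ranges overlapped. The makeup of that sum differed. The 14 RNAs called higher together gave 17.3 to 19.2 FPKM in control and 47.2 to 56.6 FPKM with SAR, and the 6 called lower gave 72.1 to 85.6 FPKM in control and 21.8 to 23.6 FPKM with SAR. These 2 sums restate the calls and add no support to them. The 2 highest RNAs, LINC01356 and LINC00458, made up 30.8% to 31.6% of the summed level in control and 35.6% to 38.2% with SAR.

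The RNAs called lower included some of the more abundant members. LINC02575, a 2-exon transcript at chr21:44485577-44490288 on the plus strand, had 21.97, 30.6 and 24.3 FPKM in the control libraries and 5.92, 5.95 and 6.499 FPKM in the SAR libraries. Every SAR library lay below every control library, with a log2 fold change of -2.04 ± 0.12 (SE, adjusted p = 0.000238). LINC00467, a plus-strand gene of up to 6 exons at chr1:211382803-211435333 that has been studied mainly in tumour cells, had 8.48, 9.72 and 8.49 FPKM in the control libraries and 2.56, 2.26 and 1.89 FPKM in the SAR libraries. The groups did not overlap here either, with a log2 fold change of -1.95 ± 0.12 (SE, adjusted p = 0.000266).

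LINC02700, at chr11:94638045-94652884 on the plus strand, had 23.01, 26.01 and 29.5 FPKM in the control libraries and 5.42, 8.45 and 10.9 FPKM in the SAR libraries. The SAR libraries spread from 5.42 to 10.9 FPKM but all stayed below the lowest control library, with a log2 fold change of -1.70 ± 0.24 (SE, adjusted p = 0.00333). LINC01467, at chr14:81605347-81623061 on the minus strand, had 15.03, 16.4 and 14.6 FPKM in the control libraries and 6.33, 4.98 and 3.16 FPKM in the SAR libraries. Its 3 SAR libraries also lay well below control, with a log2 fold change of -1.70 ± 0.23 (SE, adjusted p = 0.00288). These 4 RNAs kept their call in all 15 alternative settings.

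LINC01484, at chr5:173707614-173746211 on the minus strand, had 1.501, 1.23 and 1.399 FPKM in the control libraries and 0.498, 0.556 and 0.552 FPKM in the SAR libraries. The groups were separate and the SAR libraries lay close together, with a log2 fold change of -1.21 ± 0.15 (SE, adjusted p = 0.00246). LINC01108, at chr6:14280127-14285454 on the minus strand and described in pluripotent stem cells, had 2.11, 1.65 and 1.83 FPKM in the control libraries and 1.12, 0.782 and 0.691 FPKM in the SAR libraries. The groups did not overlap, with a log2 fold change of -1.05 ± 0.19 (SE, adjusted p = 0.00811). The fold of LINC01108 lay at the threshold, since it was -0.99 without SAR replicate 2, -0.92 without SAR replicate 3 and -0.96 without control replicate 1, and no longer called in any of these.

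The RNAs called higher were mostly scarce in control. LINC01850, at chr2:153337705-153357422 on the plus strand, had 0.384, 0.574 and 0.445 FPKM in the control libraries and 2.69, 2.81 and 1.98 FPKM in the SAR libraries. Every SAR library was higher than any control library, with a log2 fold change of 2.19 ± 0.19 (SE, adjusted p = 0.000819). The depth behind these values is small, with 3, 5 and 3 reads in control and 16, 17 and 13 with SAR, so the size of the change is less certain than the separation of the groups.

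LINC01896, at chr18:78976555-78979074 on the minus strand, had 3.005, 2.27 and 2.48 FPKM in the control libraries and 8.34, 8.18 and 9.04 FPKM in the SAR libraries. The 3 SAR libraries lay close together and far above control, with a log2 fold change of 1.69 ± 0.11 (SE, adjusted p = 0.000332). LINC02413, at chr12:92999218-93019820 on the plus strand, had 4.93, 5.11 and 5.55 FPKM in the control libraries and 17.4, 16.8 and 11.04 FPKM in the SAR libraries. SAR replicate 3 was the lowest of its group but was still above all control libraries, with a log2 fold change of 1.49 ± 0.17 (SE, adjusted p = 0.00177). Exons of AC138123.1 on the opposite strand cover 32.7% of its exonic bases.

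LINC02387, at chr12:31363481-31369301 on the minus strand, had 4.52, 4.34 and 4.03 FPKM in the control libraries and 11.7, 10.9 and 9.27 FPKM in the SAR libraries. The groups did not overlap, with a log2 fold change of 1.28 ± 0.10 (SE, adjusted p = 0.000522). LINC01850, LINC01896, LINC02413 and LINC02387 were the 4 of the 14 that kept their call in all 15 alternatives. The other 10 each lost it in at least 1, most often with a pseudocount of 1 FPKM, which compresses the change of low genes.

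LINC01208, at chr3:176604143-176635532, had 0.244, 0.139 and 0.198 FPKM in the control libraries and 0.951, 0.852 and 0.698 FPKM in the SAR libraries. It was the scarcest of the 14 and was separate between the groups, with a log2 fold change of 1.68 ± 0.29 (SE, adjusted p = 0.00709). LINC00698, at chr3:62950430-63125062, had 0.948, 0.373 and 0.656 FPKM in the control libraries and 1.88, 2.28 and 2.36 FPKM in the SAR libraries. Control varied more than SAR here, but without overlap, with a log2 fold change of 1.65 ± 0.29 (SE, adjusted p = 0.00670). LINC01918, at chr2:105144113-105145424, had 0.498, 0.284 and 0.525 FPKM in the control libraries and 1.13, 1.404 and 1.62 FPKM in the SAR libraries. All SAR libraries were above control, with a log2 fold change of 1.49 ± 0.25 (SE, adjusted p = 0.00613).

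LINC01124, a single-exon gene at chr2:170712451-170714567, had 0.647, 0.851 and 0.701 FPKM in the control libraries and 2.095, 1.92 and 1.77 FPKM in the SAR libraries. The spread within each group was small beside the difference, with a log2 fold change of 1.29 ± 0.14 (SE, adjusted p = 0.00161). LINC03022 had 0.800, 0.756 and 0.647 FPKM in the control libraries and 1.91, 1.88 and 1.92 FPKM in the SAR libraries. Its SAR libraries were nearly alike, with a log2 fold change of 1.27 ± 0.12 (SE, adjusted p = 0.00115).

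The remaining 5 RNAs called higher lost the call when a single library was left out or after rescaling. LINC02356, at chr12:111369282-111403310, had 0.488, 0.219 and 0.425 FPKM in the control libraries and 1.44, 0.789 and 1.31 FPKM in the SAR libraries, with a log2 fold change of 1.43 ± 0.33 (SE, adjusted p = 0.0171). The reads are few, with 4, 2 and 3 reads in control and 9, 5 and 9 with SAR, and without SAR replicate 1 the log2 fold change was 1.28 with an adjusted p of 0.0602. LINC02936, at chr2:113677702-113704078, had 0.814, 0.365 and 1.04 FPKM in the control libraries and 2.24, 2.52 and 1.36 FPKM in the SAR libraries, with a log2 fold change of 1.40 ± 0.37 (SE, adjusted p = 0.0279). Its adjusted p was 0.081 without SAR replicate 1, 0.0888 without SAR replicate 2 and 0.0505 without control replicate 1, and 0.0507 with a term for the replicate number (replicate block).

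LINC01456, on chromosome X, had 0.580, 0.694 and 0.748 FPKM in the control libraries and 2.03, 0.917 and 2.07 FPKM in the SAR libraries, with a log2 fold change of 1.12 ± 0.31 (SE, adjusted p = 0.0313). SAR replicate 2 lay near the control values, and the call was lost without any of 5 libraries, all except SAR replicate 2, with adjusted p between 0.07 without control replicate 3 and 0.0943 without SAR replicate 1. LINC02894 had 0.857, 0.994 and 0.704 FPKM in the control libraries and 1.89, 2.16 and 1.74 FPKM in the SAR libraries, with a log2 fold change of 1.10 ± 0.16 (SE, adjusted p = 0.00348). Its log2 fold change was 0.99 without control replicate 3 and also 0.99 after median-ratio rescaling, in both cases below the threshold. LINC03040, at chr6:44000580-44005958, had 0.483, 0.316 and 0.399 FPKM in the control libraries and 0.872, 0.953 and 0.976 FPKM in the SAR libraries, with a log2 fold change of 1.06 ± 0.22 (SE, adjusted p = 0.0115). Its log2 fold change was 0.94 without control replicate 2 and 0.96 after median-ratio rescaling, again below the threshold.

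**Figure D2:**
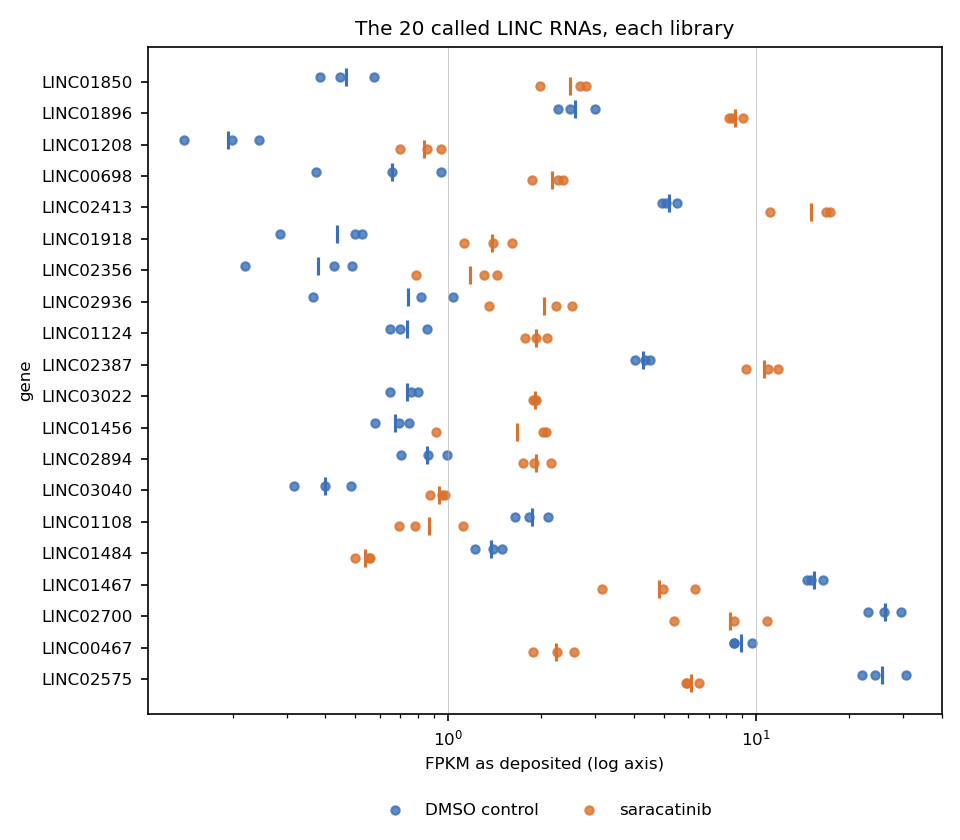
FPKM as deposited (x axis, log scale) of the 20 called LINC RNAs (y axis, ordered by log2 fold change) in each of the 3 control libraries (blue points) and 3 SAR libraries (orange points), with vertical ticks at the group means. In all 20 the 3 SAR libraries lie on 1 side of the 3 control libraries, which the test favours without requiring it, so it adds no support to the calls.

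A further 4 LINC RNAs changed by more than 1 on the log2 scale but were not called. LINC00545 was on the fixed list of symbols, and the others are named after their values were seen. LINC00545 had 1.405, 0.420 and 0.724 FPKM in the control libraries and 1.64, 1.61 and 2.23 FPKM in the SAR libraries, with a log2 fold change of 1.14 ± 0.37 (SE, adjusted p = 0.0525). It was called without control replicate 1, at 1.54 with an adjusted p of 0.0119, and with the replicate block, at an adjusted p of 0.0475. It was also called by limma with a minimum mean of 1 FPKM, at an adjusted p of 0.0476. Exons of TEX26-AS1 on the opposite strand cover 58.9% of its exonic bases. LINC02320, LINC02004 and LINC01866 had log2 fold changes of -1.36, -1.68 and -2.20 with adjusted p-values of 0.0509, 0.134 and 0.116. Each had at most 18 reads in any library, and in LINC02004 and LINC01866 the values of the 2 groups overlapped. LINC02320 was called lower, at an adjusted p of 0.0431, after median-ratio rescaling.

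The most abundant LINC RNAs behaved in different ways. LINC01356, at chr1:112820170-112850643 on the minus strand and the highest of the 161, had 118, 124 and 119.8 FPKM in the control libraries and 182, 157 and 192 FPKM in the SAR libraries. All SAR libraries were above control although the fold was under the threshold, with a log2 fold change of 0.55 ± 0.08 (SE, adjusted p = 0.00409). On the opposite strand AL390729.1 covers 21.9% of its exonic bases. LINC00458, at chr13:54115783-54132866 and known from pluripotent stem cells, had 112, 114 and 121 FPKM in the control libraries and 119, 111 and 99.1 FPKM in the SAR libraries. The groups overlapped, and the log2 fold change of -0.08 (95% confidence interval -0.26 to 0.10) did not pass the test.

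LINC02972 had 52.9, 61.3 and 57.9 FPKM in the control libraries and 55.01, 53.9 and 63.9 FPKM in the SAR libraries. The groups overlapped, with a log2 fold change of 0.00 ± 0.09 (SE, adjusted p = 0.971). LINC00888, at chr3:183447608-183456013, had 43.04, 55.7 and 47.9 FPKM in the control libraries and 25.9, 22.98 and 27.8 FPKM in the SAR libraries. The groups were well apart with a fold just short of the threshold, with a log2 fold change of -0.93 ± 0.11 (SE, adjusted p = 0.00197), and it was called without control replicate 1, at -1.02, and after median-ratio rescaling, at -1.05. Small RNA genes including SNORA63D lie within it, and exons on the same strand cover 6.15% of its exonic bases.

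LINC00678, at chr11:27617626-27634627, had 47.8, 25.1 and 33.9 FPKM in the control libraries and 28.6, 31.9 and 25.95 FPKM in the SAR libraries. Control replicate 1 was the highest library and the groups overlapped, with a log2 fold change of -0.26 ± 0.22 (SE, adjusted p = 0.388). LINC00479, at chr21:41711520-41715775, had 20.3, 23.6 and 19.97 FPKM in the control libraries and 17.1, 15.1 and 17.2 FPKM in the SAR libraries. It was lower in every SAR library, with a log2 fold change of -0.37 ± 0.09 (SE, adjusted p = 0.0181). LINC02700 and LINC02575, described above, complete the 8 highest.

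**Figure D3:**
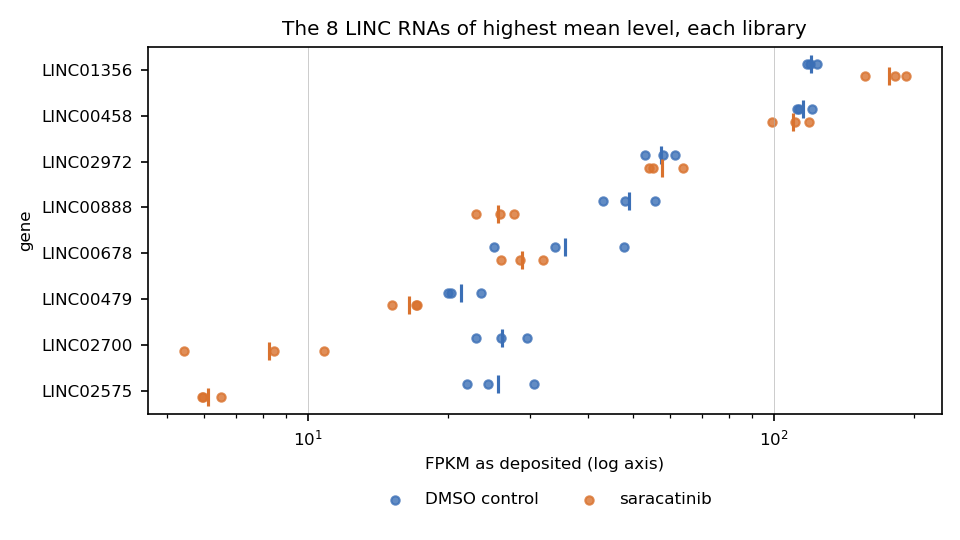
FPKM as deposited (x axis, log scale) of the 8 LINC RNAs with the highest mean (y axis, highest on top) in each control library (blue) and SAR library (orange), with vertical ticks at the group means. LINC01356 lies higher with SAR, LINC00458, LINC02972 and LINC00678 overlap, and LINC00888, LINC00479, LINC02700 and LINC02575 lie lower.

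Of other LINC genes listed for their earlier description in stem cells or tumours, LINC01194 had a log2 fold change of 0.43 (adjusted p = 0.0391), LINC00205 one of 0.32 (adjusted p = 0.0245) and LINC00667 one of 0.12 (adjusted p = 0.25), all under the fold threshold. LINC00511, LINC00648 and LINC00543 were below the minimum level, at 0.0265, 0.413 and 0.0107 FPKM. Of 50 long noncoding RNAs listed that have other names, 30 were tested, none was called higher and 1 lower, with 4 higher and 7 lower at an adjusted p under 0.05 alone by limma. The 1 called was GATA6-AS1, the divergent partner of the endoderm factor GATA6, with a mean of 63.5 ± 8.68 FPKM (SD, n = 3) in control and 26.6 ± 2.72 FPKM (SD, n = 3) with SAR.

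A feature that the choice did not use was shared transcript sequence. ESRG is a long noncoding RNA of pluripotent cells that is transcribed from an endogenous retrovirus of the HERVH family. Among the 160 LINC RNAs with a GENCODE 29 transcript, 9 (5.63%) shared at least 40 different 16-base words with ESRG, against 20 of the 1666 other GENCODE long noncoding rows tested (1.20%). Over all 16250 tested rows with a transcript, 35 (0.215%) did so, the 9 included and ESRG left out. Of the other members 150 shared none and the highest remaining count, in LINC01090, was 3, so a minimum of 20 gave the same 9. This comparison was made after the levels had been seen. The count of words was not adjusted for length, and more sequence makes a fixed count easier to reach. The median number of exonic bases was 1628 for the LINC RNAs and 882.5 for all tested long noncoding rows.

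The 9 were LINC02582 with 248 shared words, LINC02617 with 177, LINC00458 with 150, LINC00678 with 96, LINC02474 with 91, LINC02700 with 80, LINC01356 with 72, and LINC02257 and LINC03061 with 45 each. Their median mean level was 12.4 FPKM, against 1.20 FPKM for the other LINC RNAs, and they include the 2 most abundant of all. They did not move as a group, since log2 fold changes ran from -1.70 in LINC02700 to 0.71 in LINC02617, with 6 below 0 and a median of -0.26.

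LINC03061, at chr13:109269634-109278512, had 12.8, 13.5 and 12.5 FPKM in the control libraries and 6.38, 6.84 and 7.58 FPKM in the SAR libraries. The groups were separate, with a log2 fold change of -0.90 ± 0.08 (SE, adjusted p = 0.000731), and it passed the fold threshold, at -1.02, after median-ratio rescaling. LINC02582 had 13.9, 12.7 and 14.4 FPKM in the control libraries and 12.3, 11.5 and 9.31 FPKM in the SAR libraries. All SAR libraries were below control by a small margin, with a log2 fold change of -0.32 ± 0.11 (SE, adjusted p = 0.0633). LINC02474 had 6.28, 6.45 and 7.601 FPKM in the control libraries and 5.22, 4.97 and 2.11 FPKM in the SAR libraries, with SAR replicate 3 far below the rest of its group, with a log2 fold change of -0.81 ± 0.32 (SE, adjusted p = 0.0937). LINC02617 and LINC02257 overlapped between the groups, at log2 fold changes of 0.71 (adjusted p = 0.061) and 0.65 (adjusted p = 0.153). ESRG itself had a mean of 113 ± 35.2 FPKM (SD, n = 3) in control and 128 ± 8.75 FPKM (SD, n = 3) with SAR, a log2 fold change of 0.23 (adjusted p = 0.432).

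**Figure D4:**
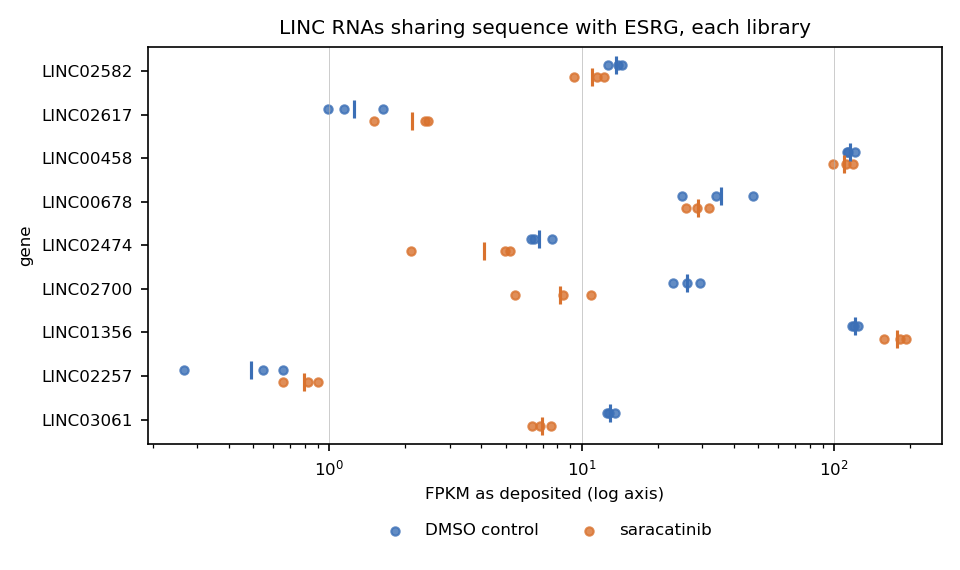
FPKM as deposited (x axis, log scale) of the 9 LINC RNAs that share at least 40 words of 16 bases with ESRG (y axis, most shared words on top) in each control library (blue) and SAR library (orange), with vertical ticks at the group means. LINC01356 lies higher with SAR, while LINC02582, LINC02474, LINC02700 and LINC03061 lie lower.

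Some LINC RNAs share transcript sequence with each other, so that reads may be divided between loci. LINC01106 and LINC01123 on chromosome 2 were the closest and shared 2114 words of 16 bases, or 92.9% of the first and 73.1% of the second. LINC01001 and LINC01002 shared 1581 (45.2% and 24.2%), and LINC00265 shared 945 words with LINC01002 and 762 with LINC01001, at most 31.0% of its own. LINC02614 and LINC02021 shared 537, or 7.77% and 27.1%. None of these 7 was called, and their values are uncertain for this reason.

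Position relative to coding genes was compared next, because such RNAs are often transcribed with a neighbour. For 160 members a coding start could be found, at a median distance of 53525 bases, with 24 within 10 kb and 8 divergent pairs within 1 kb. The nearest coding gene was itself tested for 118 and called for 10 (8.47%), which counts SAMD11 for both LINC00115 and LINC01128. Of all tested coding genes, 2.93% were called higher and 0.898% lower. Of the 20 called LINC RNAs 17 had a tested neighbour, of which 4 were called in the same direction and 0 in the opposite one. Over the 118 pairs the log2 fold changes had a Pearson's r of 0.36 and a Spearman's rho of 0.23, as a description, since the pairs share the 6 libraries. For the 22 pairs within 10 kb r was 0.44 and rho 0.22. For the 96 pairs beyond 10 kb r was 0.32 and rho 0.21, and an effect of distance was not tested.

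LINC01124 and SP5, a zinc-finger transcription factor gene and Wnt target, start 784 bases apart in opposite directions. SP5 had a mean of 6.21 ± 1.18 FPKM (SD, n = 3) in control and 17.9 ± 2.85 FPKM (SD, n = 3) with SAR, a log2 fold change of 1.52 beside 1.29 for LINC01124. LINC01896 and SALL3, a gene of the spalt transcription factor family, start 1201 bases apart, and SALL3 had a log2 fold change of 1.04 (adjusted p = 0.000919) beside 1.69 for LINC01896. LINC00698 and CADPS, which primes secretory vesicles for release, start 75041 bases apart and had log2 fold changes of 1.65 and 1.03. After median-ratio rescaling SALL3 was at 0.92 and CADPS at 0.91, both under the fold threshold.

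Among the RNAs called lower, LINC02575 lies 30091 bases from the start of LRRC3 on the same strand. LRRC3 had a mean of 10.9 ± 1.79 FPKM (SD, n = 3) in control and 3.95 ± 0.47 FPKM (SD, n = 3) with SAR, a log2 fold change of -1.43 beside -2.04. The neighbours of LINC01467 and LINC02700, SEL1L of protein quality control in the endoplasmic reticulum and AMOTL1 of the angiomotin family, had log2 fold changes of -0.75 (adjusted p = 0.0023) and -0.66 (adjusted p = 0.011), both under the fold threshold.

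Other pairs did not move together. LINC02356 starts 161 bases from PHETA1, which had a log2 fold change of 0.07 (adjusted p = 0.55) beside 1.43. LINC02894 starts 1607 bases from ESRP1, an epithelial splicing regulator, which had 0.04 (adjusted p = 0.66) beside 1.10. LINC02084 lies 9801 bases from EOMES, the T-box factor of endoderm formation, and had a log2 fold change of 0.00 (adjusted p = 0.996) beside -1.36 for EOMES. LINC00467 had -1.95 beside 0.08 for TRAF5.

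**Figure D5:**
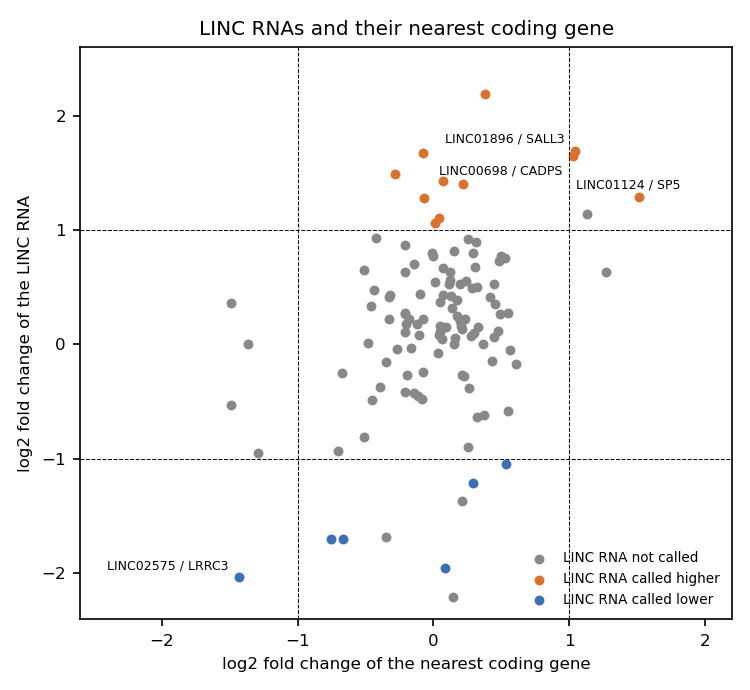
Log2 fold change of the nearest coding gene (x axis) against that of the LINC RNA (y axis) for the 118 pairs in which both were tested; orange and blue points are LINC RNAs called higher and lower, and dashed lines mark a log2 fold change of 1 in each direction. The 4 labelled pairs are those with both genes called, and they lie in the same-direction corners.

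Promoter windows were matched by symbol for 90 of the 161 LINC RNAs, among them 5 called higher and 2 called lower, and compared with 27305 windows of all genes. The median GC content was 55.5% for the LINC RNAs and 58.3% for all genes. Of the 90, 39 (43.3%) had an observed-to-expected CpG ratio above 0.6, against 48.9% of all, and this held for 4 of the 5 called higher and 0 of the 2 called lower.

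Motif shares were near those of all promoters for most motifs, each searched on both strands. TATAAA was in 14.4% of the LINC windows and 12.0% of all, the forkhead word TGTTTAC in 4.44% and 3.41%, and the GATA word AGATAA in 11.1% and 10.5%. The SMAD word CAGAC was in 47.8% and 45.0%, the GC box GGGCGG in 40% and 44.6%, and the octamer ATGCAAA in 3.33% and 4.51%. CCAAT was in 50.0% of the LINC windows and 35.7% of all. The SOX word ACAAAGG was in 10.0% and 5.27%, and in 3 of the 5 windows of RNAs called higher (LINC01896, LINC01918 and LINC03040), while the other SOX word, ACAATGG, was in 1.11% and 3.15%. A match is a description of these letters in this window, and the groups of 5 and 2 windows are too small to compare.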

How the data were processed

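RNA-seq of 3 control and 3 SAR libraries was analysed, grouped by their labels. The authors selected mRNA with oligo(dT) beads, made paired-end libraries and deposited FPKM, 1 column per library, scaled only by the library total. The submitters' processing notes name HISAT2, featureCounts, Subread, DESeq2 and GRCh38.p13, and the annotation release and strand setting are not given in the sources used here. The LINC RNAs, level bands and gene lists were chosen with earlier results of these data known.

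FPKM are not counts, so limma 3.58.1 in R 4.3.3 (lmFit, eBayes with an intensity trend) was run on log2(FPKM + 0.1), which understates the change of low genes, over 16371 rows with a mean of at least 0.5 FPKM, with Benjamini-Hochberg adjustment and no replicate block. Thresholds were an adjusted p of 0.05 and a log2 fold change of 1. The script was tested on simulated data. With 3 libraries a group, an exact permutation test cannot go below p = 0.1, so none was used. Groups of 3 are too small to flag outlying libraries.

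Whole reads were recovered from the steps of low FPKM for 40394 of 40396 rows (tolerance 0.03 of a read). They give depth, cover counting error only, and feed a voom test. The gene length behind them equalled that of GENCODE 29 for 91 of the 161 members.

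Symbols came from a table that names 30235 of the 40396 IDs. Gene types, positions, exons and transcripts came from GENCODE 29 on GRCh38, and promoters from RefSeq on GRCh38.p14. The RNAs named are all called members, the 8 highest, the 3 on each side of the minimum, a fixed list of LINC symbols and their coding neighbours. Others are named after their values were seen. The alternatives were other pseudocounts, filters, scalings, no intensity trend, a replicate block, voom, no fold minimum and leaving out each library. The tables were handled in Python 3.11.15 with pandas 2.3.3 and numpy 2.4.6, and drawn with matplotlib 3.10.9.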

Additional observations from a re-analysis of the deposited data

How the results depend on the processing

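Against 14 LINC RNAs called higher and 6 lower, a pseudocount of 1 gave 4 and 4, median-ratio rescaling 12 and 10, quantile normalization 11 and 9, a minimum of 1 FPKM 11 and 5, and dropping the fold minimum 36 and 16. Leaving out 1 library at a time gave 11 to 16 higher and 5 to 7 lower. For all tested rows (559 higher, 259 lower) the counts were 169 and 141 with a pseudocount of 1, 340 and 409 with quantile normalization, 403 and 362 with median-ratio rescaling, 369 higher with a minimum of 1 FPKM, 3885 and 1563 without a fold minimum, and 456 to 703 and 218 to 337 when 1 library was left out. The rescalings thus moved the split between higher and lower calls.

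The median log2 fold change of the LINC RNAs (0.21) was 0.0873 under median-ratio rescaling, 0.0112 under quantile normalization, 0.11 when 1 FPKM was added and 0.19 to 0.23 when 1 library was left out. None of the 20 called LINC RNAs changed sign under these alternatives. Among uncalled ones, the sign was followed only for the most abundant, those just above the minimum and those of the fixed list. Of these, 3 changed sign. LINC02972 (0.00) went to -0.12 with median-ratio rescaling and -0.0099 with quantile normalization. It went to -0.0723 without SAR replicate 3 and -0.0526 without control replicate 1 (range -0.0723 to 0.0539 over the libraries left out). LINC02512 (0.26) went to -0.18 without SAR replicate 1 and -0.29 without control replicate 3 (range -0.29 to 0.76). LINC00667 (0.12) went to -0.0081 with quantile normalization. Uncalled RNAs outside this selection could also change sign, as LINC02084 did with median-ratio rescaling, from 0.00 to -0.11. Counting LINC names in GENCODE 29 instead gave 126 members, 120 of them shared, and a minimum of 1 FPKM gave 101.

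Deviations of same-numbered libraries correlated at 0.07, 0.00 and 0.02, beside -0.08 to 0.07 for differently numbered ones. With so few libraries a group these values cannot decide whether the replicate numbers pair the libraries. With the replicate block 14 LINC RNAs were called higher, 13 of them shared (LINC02936 was lost and LINC00545 gained), and 6 lower, and over all tested rows 546 and 274. Depth limits the scarcest members: 129 of the 161 had at least 10 reads in every library.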
